A study of Mus musculus with 18 samples.

Results

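The pool of mouse keratinocytes with the highest level of the microRNA (miRNA) family miR-200 was compared with the pool that had the lowest level in the same sequencing lane. The first is the set 2 induced pool (3 libraries) and the second is the set 2 miR-200 double knockout (DKO) pool (3 libraries), so the comparison covers 6 of 18 libraries and 2 of 5 pooled files. All cells were murine keratinocytes grown in culture in E-low calcium medium, 1 dish of 15 cm for each library. The induced cells carry an inducible miR-200 construct and received 3 ug/ml doxycycline for 24 hours. The DKO cells lack miR-200 through a double knockout, and the treatment text speaks of doxycycline for the inducible cells alone. The uninduced control of set 2 (3 libraries) is the same inducible cells without induction, and its values are given beside the others. The labels used here name neither the strain, the alleles, the promoter of the construct nor the number of separate lines, so DKO and induced cells may differ in more than miR-200. Set 1 holds 6 libraries of K14-Cre Only keratinocytes and 3 DKO libraries and served as a second look at single values.

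The assay, CLEAR-CLIP, joins a miRNA to the RNA it is paired with while both sit in an Argonaute protein. Cells were cross-linked with 300 mJ/cm2 of ultraviolet light at 254 nm, AGO2 was precipitated and the RNA ends were ligated on the beads. Each entry of the files is 1 chimeric read with the mm10 position of the target part and the name of the miRNA. Reads of a pool with the same position, strand and miRNA form 1 chimera. The induced pool held 419117 reads (346032 chimeras), the uninduced pool 314071 (258909) and the DKO pool 210003 (181610). Every group is 1 pooled file, so there are no replicates to compare: the exact 95% intervals given with shares and ratios describe counting error only, and the groups were not tested against each other. The labels do not say whether the dishes of a group were independent cultures. A chimera count follows the level of the miRNA, the level of the target RNA and the ligation together, and these cannot be told apart here, nor can fewer cells of a kind and less RNA in each cell.

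A miRNA guides Argonaute to RNA by pairing of its seed, the stretch near its 5′ end, and the bound RNA is then repressed. The miR-200 family is enriched in epithelia and is known for holding back the transition to mesenchymal cells, in part through the transcription factors Zeb1 and Zeb2. Many miRNAs use the same Argonaute proteins, and the comparison asks how the miRNAs outside the family and their targets stand when the family is at its highest and its lowest.

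The family held 9.04% of chimeric reads in the induced pool (8.95 to 9.13), 6.68% in the uninduced pool and 0.360% in the DKO pool (0.334 to 0.386). Its members differed between the induced and uninduced pools. miR-200b-3p (2.43% and 0.955%), miR-200a-3p (0.573% and 0.263%) and miR-429-3p (0.917% and 0.405%) were higher in the induced pool. miR-141-3p (2.17% and 2.21%) and miR-200c-3p (2.89% and 2.79%) lay close in these pools. Of the 755 family reads in the DKO pool, all but 72 had the same position, strand, miRNA and barcode as a read of another pool in the lane. Such shared reads made up 7.94%, 9.56% and 10.1% of all reads of the induced, uninduced and DKO pools. All further shares are taken among reads outside the family, 381234 in the induced pool, 293104 in the uninduced pool and 209248 in the DKO pool, or among the 311771, 239795 and 180860 chimeras they form.

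The mature sequences below are those on which the comparison turns, from RefSeq for GRCm38.p6 (the mm10 assembly), with the seed (bases 2 to 8) in capitals. The first 2 show the seeds of the miR-200 family. The next 7 are miRNAs that held a larger share in the induced pool, and the last 10 those that held a larger share in the DKO pool.
miR-200b-3p: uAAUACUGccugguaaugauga
miR-200a-3p: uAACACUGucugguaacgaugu
miR-29a-3p: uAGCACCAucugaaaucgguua
miR-29b-3p: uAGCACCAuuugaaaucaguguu
miR-193a-3p: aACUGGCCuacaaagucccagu
miR-365-3p: uAAUGCCCcuaaaaauccuuau
miR-125b-5p: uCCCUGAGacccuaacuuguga
miR-100-5p: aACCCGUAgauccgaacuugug
miR-31-5p: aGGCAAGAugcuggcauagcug
miR-99a-5p: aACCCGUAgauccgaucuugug
miR-196a-5p: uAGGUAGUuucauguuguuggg
miR-196b-5p: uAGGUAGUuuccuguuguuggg
miR-181a-5p: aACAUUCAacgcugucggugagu
miR-181b-5p: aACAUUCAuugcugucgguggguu
miR-27a-3p: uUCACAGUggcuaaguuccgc
miR-27b-3p: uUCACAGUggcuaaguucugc
miR-23a-3p: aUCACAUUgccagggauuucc
miR-24-3p: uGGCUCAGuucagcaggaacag
miR-205-5p: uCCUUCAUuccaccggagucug
Of the 1665 miRNA names outside the family, 1399 matched a mature sequence of RefSeq by name; miR-23b-3p is named only. miR-99a-5p and miR-100-5p share a seed and differ by 1 base (U16A, miR-99a first, counted from the 5′ end), yet they stand at opposite ends of the comparison. miR-196a-5p and miR-196b-5p differ by A12C, and miR-27a-3p and miR-27b-3p by C19U, so the division within each of these pairs rests on 1 base of the read.

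Outside the family, the induced and DKO pools held different mixtures of miRNAs. Of 267 miRNAs with at least 50 reads, 27 (10.1%) held at least 2-fold more of the induced pool and 22 (8.24%) at least 2-fold less, with a counting interval that left out 1. With shares of all chimeric reads the split was 19 higher and 30 lower, and over the median ratio of the 114 miRNAs with at least 500 reads (1.09) it was 19 and 29. The log2 ratio of these 114 spread with an SD of 0.66, and 12 of these names were at least 2-fold apart. Between the induced and uninduced pools, which come from the same cells, the SD was 0.13 and 0 of the 114 differed 2-fold. The 27 miRNAs together held 11.3% of the induced reads and 4.41% of the DKO reads, and the 22 held 4.43% and 11.4%.

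On the induced side, miR-193a-3p had the largest ratio of the miRNAs with at least 200 reads, followed by miR-669f-3p, miR-365-3p, miR-29a-3p and miR-29b-3p. miR-193a-3p held 1.27% of the induced pool (4859 reads), 1.23% of the uninduced pool (3603) and 0.369% of the DKO pool (773), a ratio of 3.45 (3.20 to 3.73). miR-365-3p, which has a hairpin close to miR-193a on chromosome 11 (chr11:79726467-79726488), held 0.312%, 0.327% and 0.0951% (1188, 958 and 199 reads; ratio 3.28, 2.82 to 3.83). Both inducible pools lay close together and the DKO pool stood below them. miR-29a-3p, of a family known for targeting extracellular matrix RNAs, held 2.55%, 2.47% and 0.781% (9717, 7251 and 1635 reads; ratio 3.26, 3.10 to 3.44). miR-29b-3p held 1.36%, 1.26% and 0.445% (ratio 3.06, 2.85 to 3.28). miR-29c-3p, which shares their seed, stood at 1.40 (1.15 to 1.70) on 377 and 148 reads. Together the miR-29 names held 4.03% of the induced pool and 1.31% of the DKO pool.

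More abundant miRNAs also stood higher in the induced pool. miR-31-5p, the leading miRNA of these keratinocytes, held 12.5%, 11.8% and 8.14% of the induced, uninduced and DKO pools (ratio 1.53, 1.51 to 1.56), short of 2-fold. Its other arm, miR-31-3p, held 0.360% of both the induced and the DKO pool (ratio 1.00, 0.916 to 1.10), so the 2 arms of this hairpin differed in ratio. miR-125b-5p held 4.85%, 4.88% and 2.36% (18486, 14313 and 4948 reads; ratio 2.05, 1.99 to 2.12). The miR-183, miR-96 and miR-182 cluster of sensory and epithelial cells stood at 1.53, 1.79 and 1.53, with 5.06% of the induced and 3.16% of the DKO pool together. The miR-466, miR-467 and miR-669 names come from a repeated cluster of near-identical hairpins and are less certainly told apart. Of 42 counted, 9 were among the 27 higher miRNAs and 0 were at least 2-fold lower. Over all counted miRNAs, 10.1% were higher and 8.24% lower. The largest of the 9 with at least 200 reads were miR-669f-3p (284, 220 and 46 reads; ratio 3.39) and miR-669e-5p (194, 124 and 36; 2.96). miR-3102-3p (2.77) and the endothelial miR-126a-3p (177, 128 and 40 reads; 2.43) were the others under the naming rule.

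Some miRNAs with fewer than 200 reads had larger ratios and are named here after their values were seen. miR-155-5p, induced when immune cells are activated, had 138, 85 and 7 reads in the induced, uninduced and DKO pools (ratio 10.8, 5.11 to 27.4). miR-129-2-3p had 108, 74 and 5 (11.9, 4.93 to 37.3) and miR-146a-5p had 72, 48 and 9 (4.39, 2.19 to 9.99). miR-335-5p (54, 45 and 10) and miR-335-3p (61, 49 and 10), the arms of 1 hairpin, stood at 2.96 and 3.35. Marker RNAs of immune cells gave 3, 0 and 1 target chimeras in the 3 pools over a list of 6 genes, with Ptprc at 0.

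On the DKO side the miR-196 and miR-181 names had the lowest ratios of those with at least 200 reads. miR-196b-5p, encoded within the Hoxa gene cluster, had 7 reads in the induced pool, 6 in the uninduced pool and 384 in the DKO pool (ratio 0.0100, 0.00400 to 0.0208). miR-196a-5p, encoded in the Hoxb and Hoxc clusters, had 148, 111 and 485 (ratio 0.168, 0.138 to 0.202). The DKO pool stood above both inducible pools for each. The target RNAs of 2 neighbouring Hox genes, chosen after their values were seen, lay the same way: Hoxa9 had 8, 9 and 32 chimeras and Hoxb6 had 7, 7 and 25. miR-181a-5p had 113, 73 and 346 reads (ratio 0.179, 0.144 to 0.222) and miR-181b-5p had 94, 92 and 261 (0.198, 0.154 to 0.251). miR-181c-5p and miR-181d-5p, made from another cluster on chromosome 8, stood at 0.703 and 0.715.

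Both copies of the cluster that holds miR-23, miR-27 and miR-24 had lower shares in the induced pool. miR-27a-3p held 4.21%, 4.32% and 7.98% of the induced, uninduced and DKO pools (ratio 0.528, 0.516 to 0.539) and miR-23a-3p held 3.36%, 3.44% and 5.84% (0.576, 0.562 to 0.591). From the copy on chromosome 13, miR-23b-3p held 0.721%, 0.664% and 2.16% (0.334, 0.319 to 0.351) and miR-27b-3p 0.743%, 0.704% and 2.00% (0.372, 0.354 to 0.390). miR-24-3p, which both copies make, stood at 0.536 (0.518 to 0.555). Its other arm tells the copies apart: miR-24-2-5p, of the chromosome 8 copy, stood at 0.546 (0.445 to 0.670) and miR-24-1-5p, of the chromosome 13 copy, at 0.311 (0.161 to 0.582). miR-24-1-5p had only 17 and 30 reads in the induced and DKO pools. Its interval held the ratios of miR-23b-3p and miR-27b-3p but also those of miR-27a-3p and miR-23a-3p, so it does not separate the copies.

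miR-205-5p, an epithelial miRNA that keratinocytes express strongly, held 2.46%, 2.75% and 5.41% (9386, 8055 and 11312 reads; ratio 0.455, 0.443 to 0.468). miR-708-5p had 114, 63 and 171 reads (0.366, 0.286 to 0.467). miR-712-5p (136, 92 and 221 reads; 0.338) and miR-7068-5p (108, 120 and 169; 0.351) lay on few positions, 17 chimeras each in the DKO pool, and miR-7068-5p stood at 0.614 with each position counted once. Of miRNAs with fewer than 200 reads, miR-340-5p (14, 13 and 70) and miR-124-3p (16, 13 and 61) had ratios of 0.110 and 0.144 and are named after their values were seen.

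Some members of the copies of the miR-99, let-7 and miR-125b cluster had opposite ratios. From chromosome 9, miR-100-5p had 120, 92 and 28 reads (ratio 2.35, 1.55 to 3.69) and miR-125b-1-3p had 217, 177 and 61 (1.95, 1.46 to 2.64). From chromosome 16, miR-99a-5p had 2, 2 and 81 reads (0.0136, 0.00161 to 0.0506) and miR-125b-2-3p had 0, 1 and 19 (upper limit of the ratio 0.118). miR-125b-5p itself is the same from both copies. The let-7 names did not show such a division. let-7c-1-3p had 5, 2 and 4 reads (0.686, 0.148 to 3.46), an interval that left out the ratio of miR-99a-5p. let-7c-5p stood at 0.705 (0.674 to 0.737). let-7a-2-3p (2, 1 and 0 reads) and miR-100-3p (0, 0 and 3), the other arm of miR-100, had intervals that included 1. In set 1 miR-99a-5p had 14 reads in the Cre-only pool and 0 in the DKO pool, the opposite order to set 2.

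**Figure D1:**
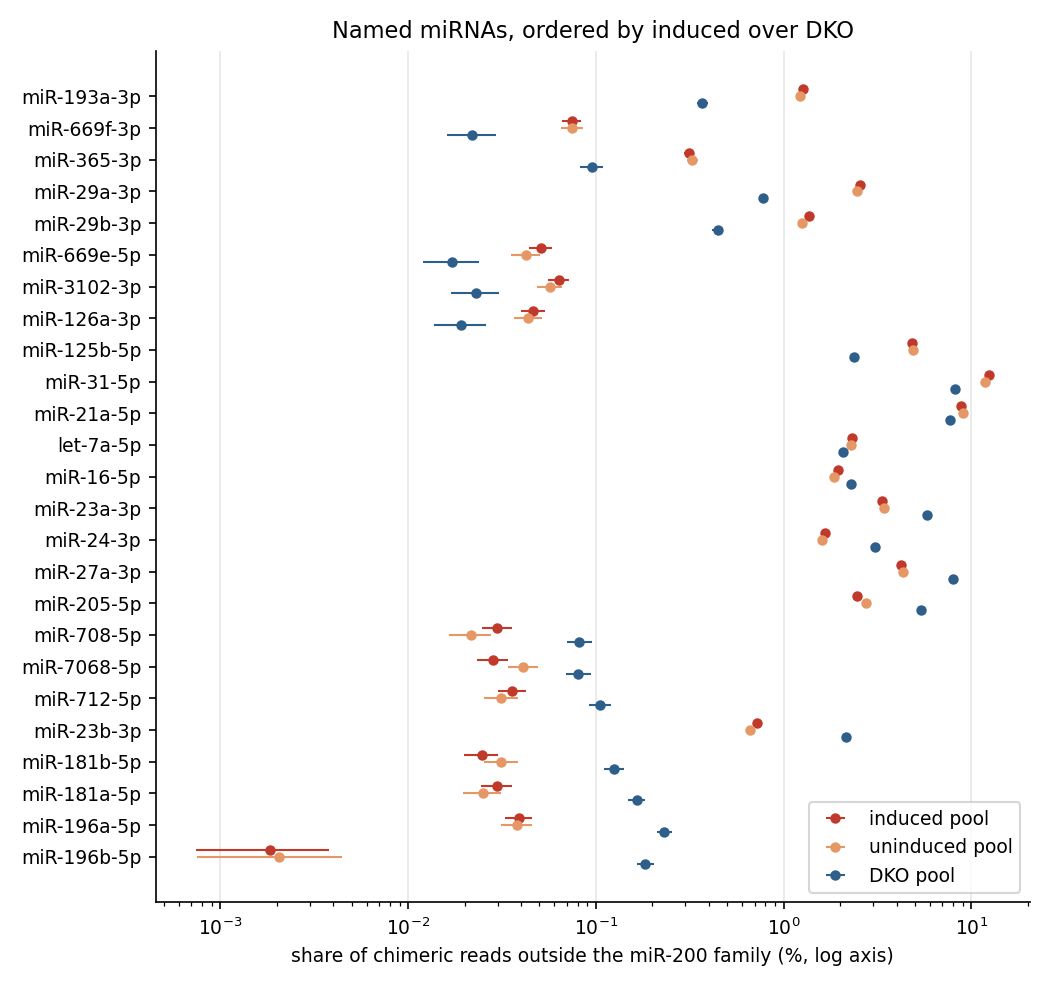
Share of chimeric reads outside the miR-200 family (%, log axis) for each named miRNA in the induced, uninduced and DKO pools, with exact 95% counting intervals, ordered by the ratio of induced over DKO. The induced and uninduced pools lie together for most miRNAs while the DKO pool lies below them at the top (miR-193a-3p 0.369% against 1.27%) and above them at the bottom (miR-196b-5p 0.184% against 0.00184%).

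Several abundant miRNAs stood near 1. miR-21a-5p held 8.78%, 9.04% and 7.70% (ratio 1.14, 1.12 to 1.16) and miR-16-5p 1.95%, 1.86% and 2.29% (0.852, 0.822 to 0.884). let-7a-5p stood at 1.12, but at 0.991 with each position counted once, so its side of 1 depends on the counting. miR-203-3p, which promotes differentiation in the epidermis, stood at 0.961 (0.913 to 1.01), with 1.07% of the induced and 1.11% of the DKO pool but 1.48% of the uninduced pool. The miR-17-92 names together stood at 1.09, the let-7 names at 1.06, miR-15 and miR-16 at 0.895 and miR-34 at 1.03.

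Hairpins that lie close together mostly lay on the same side of 1. In 23 groups of hairpins within 10 kb of each other, the members lay on 1 side of 1 in 20, and the largest ratio over the smallest had a median of 1.15. The 3 exceptions, miR-17 to miR-92a on chromosome 14, let-7f with miR-98 and miR-351 with miR-322 on the X chromosome, had members on both sides of 1. The widest group, miR-29b-3p with miR-29c-3p on chromosome 1, had ratios 2.19-fold apart. A mature miRNA made from several loci counts in each of their groups. Hairpins that lie apart were not set beside these groups. Of 60 hairpins with at least 20 reads from each arm, both arms lay on the same side of 1 in 43 (Pearson's r of the log2 ratios 0.74 over 60 hairpins, a description; arms of a hairpin share their pools and depth). Of 9 hairpins whose more abundant arm differed at least 2-fold, the rarer arm lay on the same side in 8 and also differed 2-fold in 7. miR-193a-5p (26, 29 and 2 reads), the rarer arm of miR-193a, stood at 7.14 (1.79 to 62.0), on the side of miR-193a-3p.

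**Figure D2:**
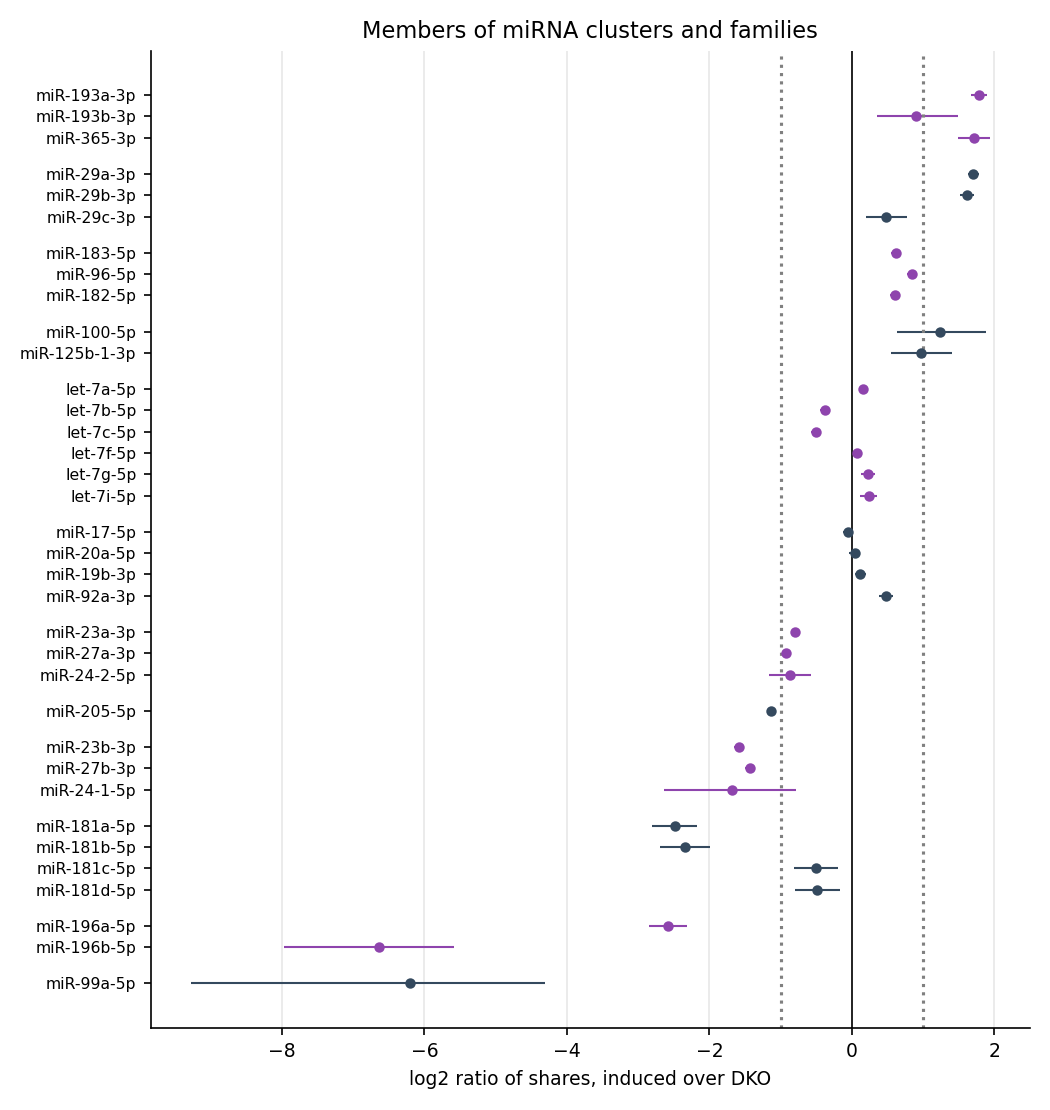
Log2 ratio of shares, induced over DKO, for members of miRNA clusters and families, with exact 95% counting intervals; dotted lines mark 2-fold and colours only separate neighbouring groups. miR-29a-3p and miR-29b-3p lie together above 1, both copies of the miR-23, miR-27 and miR-24 cluster lie below 0, and miR-100-5p and miR-99a-5p lie on opposite sides.

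In set 1, whose libraries are other samples than those of set 2, Cre-only cells over DKO cells gave other values for several of these miRNAs. The ratio was 1.04 (0.835 to 1.31) for miR-29b-3p, 0.746 (0.643 to 0.868) for miR-193a-3p and 0.954 for miR-125b-5p, against 3.06, 3.45 and 2.05 here. The leading miR-31-5p stood at 0.845 (0.806 to 0.885), against 1.53 here. miR-196a-5p (1.04, 0.776 to 1.41), miR-181b-5p (1.21, 0.854 to 1.73), miR-712-5p (1.42, 1.04 to 1.98) and miR-7068-5p (1.67, 1.19 to 2.40), all lower here, lay above 1 in set 1. The set 1 ratio lay on the same side of 1 as here for miR-24-3p (0.704), miR-23a-3p (0.636), miR-27b-3p (0.641), miR-27a-3p (0.714) and miR-196b-5p (10 reads in Cre-only cells and 19 in DKO cells, 0.163, 0.0679 to 0.369). Others on the same side included miR-205-5p (0.747) and miR-23b-3p (0.755). So did miR-181a-5p (0.795, 0.549 to 1.17) and miR-29a-3p (1.17, 0.989 to 1.40), with intervals that included 1. The set 1 Cre-only cells are not the inducible cells, so the contrasts differ in more than the set. Abundant miRNAs near 1 here also lay below 1 in set 1, with miR-16-5p at 0.621, let-7a-5p at 0.782 and miR-21a-5p at 0.803, so a set 1 value below 1 is not particular to the names above.

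RNA from the sex chromosomes separated the cells. Xist, the RNA that coats the inactive X chromosome, had 5 chimeras in the induced pool, 3 in the uninduced pool and 225 in the DKO pool (ratio 0.0129, 0.00415 to 0.0305), counted on the minus strand of its span at chrX:103460373-103483233. The Y-linked Ddx3y, an RNA helicase gene, had 81, 50 and 2, and Uty, a histone demethylase gene, had 70, 62 and 1. Eif2s3y had 18, 7 and 0, at least 3.48-fold higher in the induced pool against a floor of 3 chimeras. Kdm5d, also Y-linked, had 11, 8 and 2, with an interval of its ratio that included 1 (0.696 to 29.6). In set 1, whose Cre-only pool is the deeper (112622 against 37761 chimeras outside the family), Xist had 1 chimera in Cre-only cells and 17 in DKO cells. Ddx3y had 11 and 0 there and Uty 13 and 1, while the whole Y chromosome had 55 and 22, which is no larger a share in the Cre-only pool. The induced and DKO pools thus came from cells that differ in sex-linked RNA, and miR-200 genotype and this difference cannot be told apart.

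Targets of the other miRNAs were counted by gene, as chimeras whose midpoint lies in the RefSeq span of the gene. Of 14802 genes with a chimera in either pool, 3546 had at least 30. Of these, 336 (9.48%) held at least 2-fold more of the induced chimeras and 236 (6.66%) at least 2-fold less, with an interval that left out 1. The median ratio of the 3546 was 1.05, and among the 1064 genes with at least 100 chimeras the log2 ratio had an SD of 0.78. Protein-coding genes held 86.0% of the induced and 84.8% of the DKO chimeras.

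Several of the most abundant targets lay nearer to 1. Ahnak had 1224, 945 and 707 chimeras (1.00), Rbms1, an RNA-binding protein gene, 813 in the induced and 378 in the DKO pool (1.25, 1.10 to 1.41) and Igf1r, a growth factor receptor gene, 633, 493 and 435 (0.844, 0.746 to 0.956). The polarity gene Pard3 had 526, 438 and 481 (0.634, 0.559 to 0.719) and the transcription factor gene Foxp1 485, 437 and 477 (0.590, 0.519 to 0.671). In set 1, Cre-only over DKO gave the opposite side for Rbms1 (0.613, 0.473 to 0.798), and the intervals of Ahnak, Igf1r, Pard3 and Foxp1 included 1.

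Sparc and Cdh2 were on the induced side and Fn1 on the DKO side, so matrix and adhesion genes lay both ways. The matrix glycoprotein gene Sparc had 457 chimeras in the induced pool, 342 in the uninduced pool and 38 in the DKO pool (ratio 6.98, 5.01 to 9.99). After division by the ratio that the changed miRNA mixture alone would give the gene, an alternative added after the data were seen, it was 3.67. Cdh2, the gene of N-cadherin, had 72, 39 and 5 (8.35, 3.42 to 26.5). Without reads shared with another pool of the lane Cdh2 kept 67 chimeras in the induced and 1 in the DKO pool, a ratio of 38.1. Itga5, an integrin subunit gene, had 38, 22 and 1 (22.0, 3.72 to 893). Fn1, the fibronectin gene, lay the other way with 3, 5 and 39 (0.0446, 0.00882 to 0.140), as did Tgfbi with 5, 5 and 18, which is too few to be counted. Of 15 genes on the list of the epithelial to mesenchymal transition, 10 had a chimera in either pool and 6 were counted, 4 of them on the higher side and 1 on the lower, where 9.48% and 6.66% of all counted genes were called. Zeb2 had 4, 0 and 0 chimeras, and Snai2 had 37, 34 and 22 (0.976). Fibroblast markers had 10, 10 and 0 chimeras over 8 genes, all of them on Pdgfra, with Col1a1, Col1a2 and Col3a1 listed at 0 in all 3 pools. Melanocyte markers had 15, 7 and 20 over 7 genes, mainly on Mitf (13, 6 and 17), with Dct and Mlana at 0. The part of such cells in the values above was not tested.

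The 10 genes with the largest ratios among those with at least 60 chimeras included the Y-linked Uty (40.6, 7.05 to 1627) and Ddx3y (23.5, 6.30 to 197). The others were Zfp608 (61, 55 and 1 chimeras), Gm50595 (98, 50 and 4), Nr1h5 (57, 34 and 3), Erc2 (123, 78 and 7), Ccbe1 (169, 128 and 10), Samd5 (206, 173 and 14), Cdh2 and Gprc5a (69, 41 and 5). Without reads shared within the lane, Uty, Zfp608, Ddx3y and Nr1h5 had 0 chimeras in the DKO pool, Gm50595 stood at 26.8 in place of 14.2 and Samd5 at 14.2 in place of 8.54. The ratios of these genes are thus uncertain in size, and all 10 stayed above 1. Samd5 and Ccbe1 were carried by many positions and many miRNAs. The chimeras of Samd5 in both pools came from 77 miRNAs, and 1.36% of them lay in the fullest window of 100 bases. Ccbe1, which acts in lymphatic growth, had 133 windows and 64 miRNAs. In set 1, Cre-only over DKO also lay above 1 for Ccbe1 (5.45, 2.69 to 12.9) and Cdh2 (2.68, 1.06 to 8.71). The set 1 intervals of the others of the 10 included 1, with Gm50595 below 1 (0.335, 0.0625 to 1.80).

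The 10 genes with the smallest ratios among those with at least 60 chimeras had between 1 and 26 chimeras in the induced pool. Zbtb16, a transcription factor gene, had 1, 1 and 62 chimeras in the induced, uninduced and DKO pools (ratio 0.00936, 0.000233 to 0.0541). Dcc, a netrin receptor gene, had 4, 3 and 96 (0.0242) and Trps1, a transcription factor gene of hair follicle and cartilage, had 8, 6 and 155 (0.0299, 0.0127 to 0.0605). Tenm3 (4, 8 and 75), Adgrl3 (6, 4 and 69), Igfbp2 (6, 3 and 67), Pde10a (10, 6 and 78), Brinp3 (12, 5 and 71), Galnt18 (26, 27 and 140) and Ehf (11, 8 and 59) completed the 10. Without reads shared within the lane the ratios of Tenm3, Adgrl3 and Igfbp2 were smaller still, 0.0154, 0.0335 and 0.0271 in place of 0.0309, 0.0504 and 0.0520. Ehf is an epithelial transcription factor and Igfbp2 binds insulin-like growth factors. Trps1 had chimeras in 135 windows with 61 miRNAs, so its value did not rest on 1 site. In set 1, Cre-only over DKO gave the opposite side for Pde10a (35 and 3 chimeras; 3.91, 1.23 to 19.9). Zbtb16 (1.54), Igfbp2 (1.46), Brinp3 (1.46), Galnt18 (1.71) and Ehf (1.01) also lay above 1 there, with intervals that included 1. Trps1 lay below 1 in set 1 (0.144, 0.0240 to 0.629), as did Dcc, Tenm3 and Adgrl3, whose intervals included 1. Named after their values were seen, Ccn2, a matricellular target of the Hippo pathway, had 69, 56 and 277 chimeras (0.145, 0.109 to 0.189) and Cdh13, a cadherin gene, had 66, 51 and 266 (0.144, 0.108 to 0.189).

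**Figure D3:**
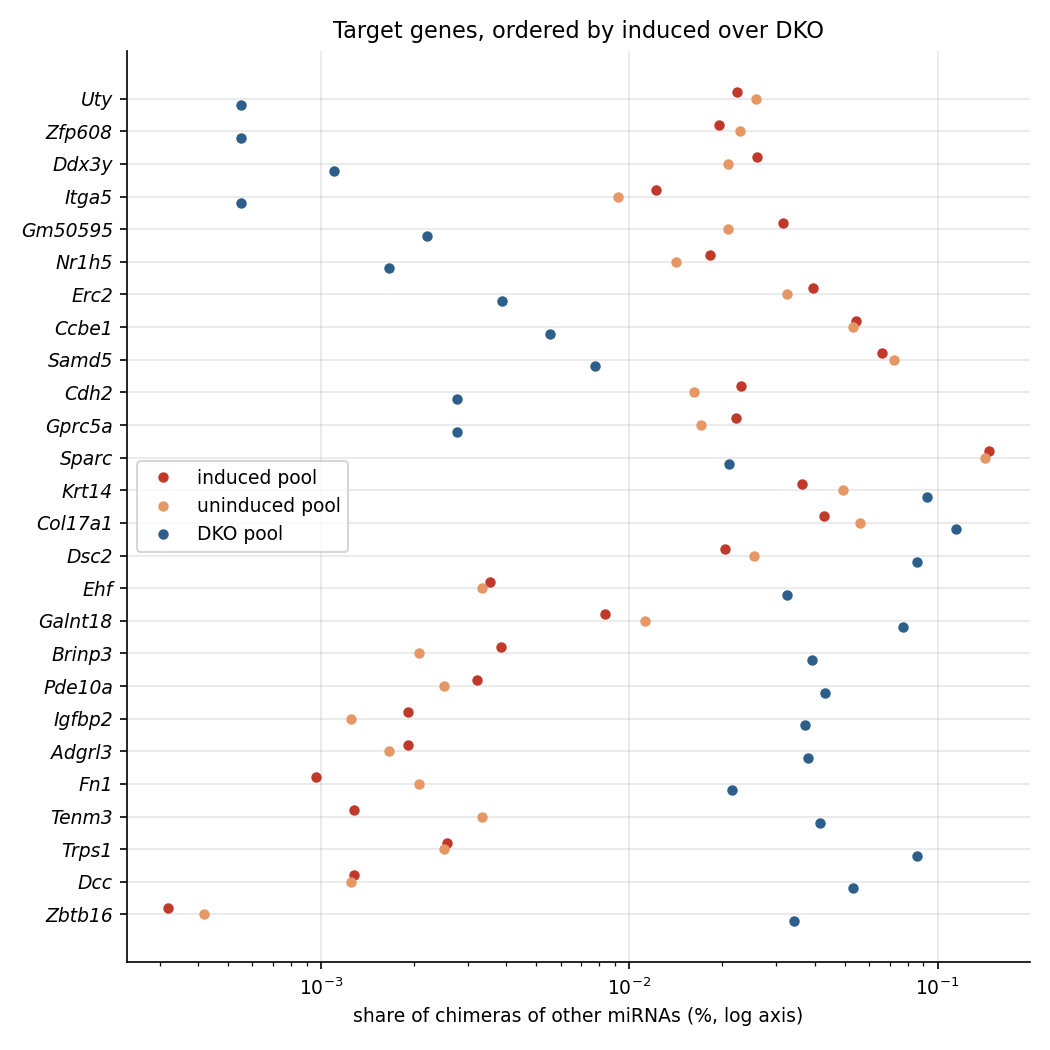
Share of chimeras of miRNAs outside the family (%, log axis) in the induced, uninduced and DKO pools for the 20 target genes with the largest and smallest ratios and 6 genes of the lists. The DKO pool lies apart from both inducible pools in either direction, from Uty (1 of the DKO chimeras against 70 induced) to Zbtb16 (62 against 1).

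Keratinocyte genes were present in all 3 pools. The 12 keratinocyte markers had 1461, 1263 and 1151 chimeras in the induced, uninduced and DKO pools, 0.469%, 0.527% and 0.636% of each. Of 14 counted genes of the basal keratinocyte list, 2 were on the higher side and 2 on the lower, about 1 gene more each way than the shares over all counted genes (9.48% and 6.66%) would give. Krt14, a basal keratin gene, had 113, 118 and 167 (ratio 0.393, 0.306 to 0.501) and Col17a1, a hemidesmosome collagen gene, 134, 134 and 207 (0.375, 0.300 to 0.469). The integrin gene Itga3 had 162, 126 and 44 (2.14, 1.52 to 3.05). Cd44, the most abundant on the list (281, 225 and 150; 1.09, 0.888 to 1.33), Krt5 (0.867, 0.662 to 1.14) and Itga6 (0.977, 0.771 to 1.24) had intervals that included 1. Of the differentiated keratinocyte list 11 genes had a chimera and only Klf4 was counted (23, 15 and 8), followed by Grhl3 (21, 15 and 7). Of 5 counted stress and wound genes, Sprr1a (23, 44 and 40) and Sprr1b (24, 56 and 33) were on the lower side, and both had the most chimeras in the uninduced pool. Krt6a, a wound keratin gene, had 110 chimeras in both the induced and the DKO pool (0.580, 0.441 to 0.763) and Krt17 58, 61 and 56 (0.601), short of 2-fold.

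The counts of the other lists are to be read against the same 9.48% higher and 6.66% lower over all counted genes. Of 19 counted cell junction genes, Epcam (32, 33 and 6 chimeras; ratio 3.09) was on the higher side and Dsc2, a desmosome gene (64, 61 and 155; 0.240, 0.176 to 0.323), on the lower. The desmosome genes Dsc3 (1.73, 1.37 to 2.22) and Dsg3 (1.60) lay above 1 and Dsp (0.617, 0.493 to 0.774) below it. The most abundant junction genes were Cldn4, a claudin gene with 634, 421 and 265 chimeras (1.39, 1.20 to 1.61), and Ctnnd1, the gene of p120 catenin, with 302, 226 and 133 (1.32). Of 18 counted actin and focal adhesion genes, Msn (235, 151 and 65; 2.10) and Cfl2 (63, 42 and 18; 2.03) were on the higher side and 0 on the lower, with Actn1 (1.45) and Myh9 (1.53) short of 2-fold. Of 9 counted cell cycle genes, Ccnd1 (103, 76 and 23; 2.60, 1.64 to 4.28) and Cdkn1a (155, 117 and 40; 2.25, 1.58 to 3.27) were on the higher side. The kinase gene Cdk6 (122, 90 and 133; 0.532, 0.413 to 0.685) and E2f3 (129, 93 and 107; 0.699) were the most abundant of that list and lay below 1. Of 9 counted genes of small RNA machinery, Xpo5 (42, 19 and 10; 2.44) was higher and Dgcr8 (20, 13 and 30; 0.387) lower, with Ago2 at 0.857 (0.646 to 1.14) and Tnrc6a, the gene of an Argonaute partner, at 1.74 (1.40 to 2.18) and its relative Tnrc6b at 0.944 (0.755 to 1.19).

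The ratios of target genes differed by chromosome, a property looked at after the values were seen. The median log2 ratio of counted genes was 0.40 on chromosome 7 (179 genes), 0.31 on chromosome 14, 0.30 on chromosome 12 and 0.25 on chromosome 6. It was -0.33 on chromosome 8 (183 genes), -0.24 on chromosome 5 and -0.22 on chromosome 13, against 0.07 over all counted genes. On chromosome 7, 37 genes were on the higher side (20.7%) and 5 on the lower (2.79%), and on chromosome 8, 6 (3.28%) and 20 (10.9%), against 9.48% and 6.66% over all counted genes. On chromosome 7 all 8 stretches of 20 Mb with at least 10 counted genes had a median above that of all genes, and on chromosome 8 0 of 7 did. The SD of the medians over 20 chromosomes was 0.20. For induced over uninduced, the same cells, it was 0.03, and the medians lay between 0.02 and 0.11. In chimera shares, chromosome 7 held 5.25%, 5.22% and 4.19% of the induced, uninduced and DKO pools and chromosome 8 held 4.55%, 4.49% and 5.84%. Both copies of the miR-23, miR-27 and miR-24 cluster lie on chromosomes with low medians, 8 and 13. miR-193a and 1 of the 2 loci of miR-365-3p lie on chromosome 11, whose median was -0.08. miR-29a and miR-196b, whose ratios lay on opposite sides of 1, both lie on chromosome 6 (0.25). miR-205 lies on chromosome 1 (-0.04). Whether miRNA ratios follow the chromosome of the hairpin was not tested. In set 1, with 2841 genes of at least 10 chimeras, Cre-only over DKO gave 0.25 on chromosome 7 and 0.06 on chromosome 8, against 0.07 over all these genes. The largest set 1 medians were 0.30 on chromosomes 1 and 4, where set 2 gave -0.04 and 0.19, and chromosome 6 stood at 0.01 in set 1 and 0.25 in set 2. Cell line and genotype cannot be told apart here, and the cause of the chromosome values was not tested.

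**Figure D4:**
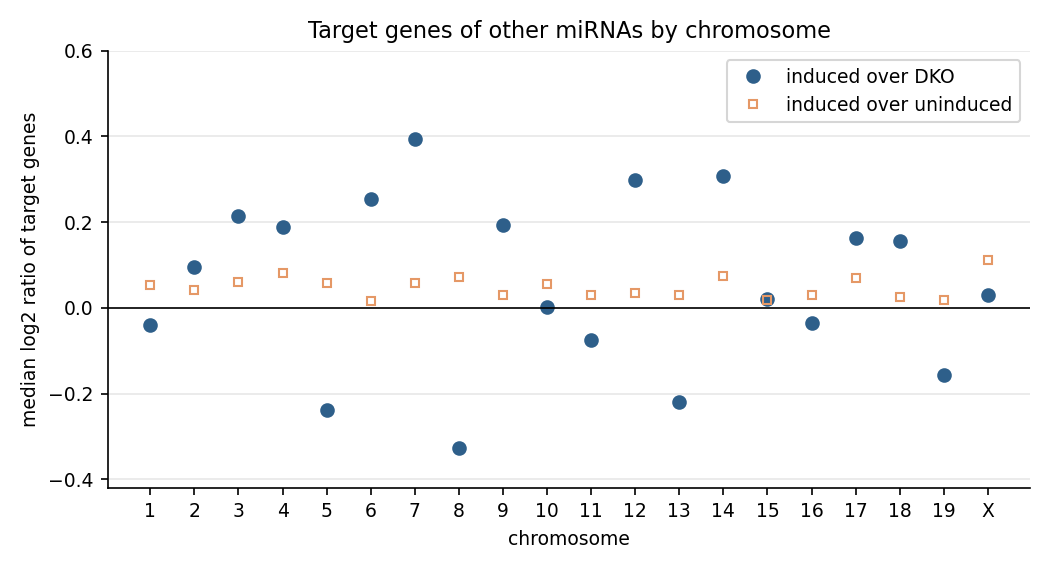
Median log2 ratio of the target genes of other miRNAs on each chromosome, for induced over DKO (filled) and for induced over uninduced (open squares). The induced over DKO medians run from -0.33 on chromosome 8 to 0.40 on chromosome 7, while the induced over uninduced medians stay between 0.02 and 0.11.

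The leading targets of single miRNAs were in part shared between the pools. Of the 20 genes with the most chimeras of a miRNA in each pool, 12 were shared for miR-21a, miR-27 and miR-125b, 11 for miR-23 and 10 for miR-29, miR-31 and the miR-183, miR-96 and miR-182 cluster. Fewer were shared for miR-193a, miR-24 and miR-205 (7 each), miR-181a and miR-181b together (4), miR-365 (3) and miR-196 (1). In the induced pool miR-196 had 151 chimeras over 113 genes and miR-181a with miR-181b 191 over 146. miR-365 had 191 over 147 genes in the DKO pool. Lists this thin hold genes with few chimeras each, and the overlap expected at each depth was not computed. The shared numbers therefore cannot be compared between miRNAs. miR-29 chimeras numbered 12102, 8915 and 2279 in the induced, uninduced and DKO pools. Sparc took 299, 214 and 15 of them, 2.47%, 2.40% and 0.658%, which is 3.75 times the DKO share (2.24 to 6.79) within miR-29 itself. Most lay at 1 place, chr11:55395387-55395507 on the minus strand, with 261, 191 and 13. Fem1b had 75, 72 and 18 miR-29 chimeras, a ratio within miR-29 of 0.785 (0.464 to 1.39), and 73, 70 and 18 of these lay at chr9:62796012-62796091. Sparc and Fem1b, each with most of its miR-29 chimeras at 1 place, thus lay on opposite sides within miR-29, although the interval of Fem1b included 1. Tet3 (57, 61 and 5) and Tet2 (48, 34 and 6), genes of enzymes that oxidise methylcytosine, and the collagen gene Col7a1 (60, 41 and 5) were other leading miR-29 targets, each with an interval within miR-29 that included 1.

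For miR-31 the claudin gene Cldn4 led after Neat1, with 245, 151 and 94 of 37652, 28019 and 14971 chimeras (ratio within miR-31 1.04, 0.814 to 1.33). Plet1, an epithelial progenitor gene, had 130, 108 and 19 (2.72, 1.67 to 4.66), nearly all at chr9:50504632-50504905. Over all miRNAs outside the family Plet1 stood at 3.64. That ratio includes its miR-31 chimeras, and a ratio without them was not computed. For miR-193a, Lrrc8a had 40, 23 and 3 chimeras, of which 39, 22 and 2 lay at chr2:30262808-30262919. For miR-205, Hspa5, the gene of an endoplasmic reticulum chaperone, had 63, 51 and 13 (5.87, 3.20 to 11.6), although miR-205 as a whole was lower in the induced pool. Over all miRNAs outside the family, miR-205 included, Hspa5 stood at 2.92. For miR-27, Adora2b, an adenosine receptor gene, had 114, 78 and 56 (2.31, 1.66 to 3.23), and Scd2, a fatty acid desaturase gene, had 103, 94 and 146 (0.799, 0.615 to 1.04). Runx1 had 102, 91 and 93 miR-27 chimeras, of which 97, 82 and 81 lay at chr16:92605480-92605624. miR-196 gave 151, 111 and 806 chimeras spread thinly over genes. Neat1 had 1, 0 and 9 of them and Cdkn1b, a cell cycle inhibitor gene, 1, 0 and 6.

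Genes that carry many miR-200 chimeras were then looked at for what other miRNAs did on them. In all, 265 counted genes had at least 20 miR-200 chimeras in the induced pool. They held 9378 miR-200 chimeras there, 30.0% of those on named genes, 5074 in the uninduced pool and 194 in the DKO pool. miR-200 made up between 4.08% and 70.4% of the chimeras of such a gene in the induced pool, with a median of 15.1%. Other miRNAs on these genes held 20.0%, 20.5% and 18.8% of the induced, uninduced and DKO chimeras outside the family. Their median log2 ratio, induced over DKO, was 0.16, against 0.07 over all counted genes. It was 0.24 for the 52 genes with at least 40, 0.15 for 10 to 19, 0.06 for 5 to 9, 0.02 for 1 to 4 and 0.00 for the 330 genes with 0. These genes were chosen by a count in the induced pool, which is also 1 side of the ratio. Of the 265, 28 (10.6%) were on the higher side and 5 (1.89%) on the lower, against 9.48% and 6.66% of all counted genes, so the higher side was near the share over all genes. Chosen instead by at least 20 miR-200 chimeras in the uninduced pool, 83 genes gave 0.23. Chosen by a miR-200 part of at least 20% of the chimeras of the gene in the uninduced pool, 173 genes gave 0.08. The uninduced pool is the same cells as the induced pool, so neither choice is independent of the ratio.

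The 12 genes with the most miR-200 chimeras had ratios on both sides of 1 for other miRNAs. The nuclear RNA Neat1 had 477, 266 and 17 miR-200 chimeras in the induced, uninduced and DKO pools and 4565, 3756 and 2276 of other miRNAs (ratio 1.16, 1.11 to 1.22). Malat1, a nuclear RNA too, had 157, 85 and 3 of miR-200 and a ratio of 1.38 (1.25 to 1.51). Scd2 had 138, 68 and 8 of miR-200, and its 415, 374 and 416 other chimeras gave 0.579 (0.504 to 0.665). Vldlr, a lipoprotein receptor gene with 74, 39 and 3, stood at 0.574 (0.428 to 0.769), on 96, 64 and 97 other chimeras. Ahnak (130, 88 and 5 of miR-200) stood at 1.00 (0.915 to 1.10), Nrg1 at 0.957 (0.808 to 1.14), Rbms1 at 1.25 and Grip1 at 0.880. Tnrc6a (101, 77 and 4 of miR-200) stood at 1.74, Hmga2, a chromatin protein gene (73, 37 and 0), at 2.37 (2.04 to 2.77) and Thbd, the thrombomodulin gene (68, 33 and 0), at 2.25 (1.80 to 2.83). The ribosomal RNA locus Rn18s-rs5, with 393, 301 and 5, had 5046, 5169 and 3080 other chimeras, and the interval of its ratio ran from 0.909 to 0.994.

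The largest ratios among the 265 were those of Ddx3y (67, 35 and 1 miR-200 chimeras; 23.5), Samd5 (8.54), Serpinh1, a collagen chaperone gene (76, 30 and 6 other chimeras; 7.35, 3.22 to 20.6), Htra1 (4.08), Abca12 (3.81) and Sel1l (3.64). Among the smallest were Ext1, a heparan sulfate enzyme gene (216, 179 and 487 other chimeras; 0.257, 0.218 to 0.303), Uba6 (16, 28 and 25; 0.371), Plk2 (34, 32 and 49; 0.403), Gclc (0.463) and Arhgap32 (0.507). Among commonly cited miR-200 targets, 27 of 30 had a chimera of another miRNA and 17 were counted. Cfl2 and Msn were on the higher side, Fn1 and Dlc1 (15, 15 and 24; 0.363) on the lower, and the median ratio of the 17 was 1.08 against 1.05 over all genes. Msn and Ptpn13 (144, 111 and 126; 0.663, 0.518 to 0.849) had the most chimeras on that list. Sec23a, with miR-200 at 50.0% of its uninduced chimeras, stood at 1.57 (0.883 to 2.92) and Qk at 0.964 (0.707 to 1.32).

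Within genes, other miRNAs were counted inside and outside the places that miR-200 occupies. Places were taken from the uninduced pool, which is the same cells as the induced pool, as runs of overlapping miR-200 targets with at least 3 chimeras (799 places). In the 419 genes with other miRNAs inside such a place, the ribosomal RNA locus left out, 4986 of 47490 other chimeras lay inside in the induced pool (10.5%, 10.2 to 10.8), 4121 of 37031 in the uninduced pool (11.1%, 10.8 to 11.4) and 2406 of 24730 in the DKO pool (9.73%, 9.36 to 10.1). With at least 10 miR-200 chimeras (95 places) the shares were 7.02%, 7.75% and 5.63%. The share inside was lowest in the DKO pool at both minimums, but places chosen in the inducible cells favour this order, so it is a description only. Some of the fullest places held almost no other miRNA in any pool. The Tnrc6a place at chr7:123194308-123194363 had 51, 40 and 3 miR-200 chimeras and 1, 3 and 1 of other miRNAs, and the Birc6 place at chr17:74690395-74690452 had 40, 26 and 0 against 0, 0 and 0. The Vldlr place at chr19:27249361-27249422 had 66, 34 and 3 miR-200 chimeras and 9, 4 and 10 others, and the Scd2 place at chr19:44303236-44303357 had 95, 39 and 7 and 23, 32 and 14. The Anxa1 place at chr19:20375247-20375300 had 32, 24 and 1 miR-200 chimeras and 12, 6 and 18 others, and its others were most numerous in the DKO pool. Other full places lay the other way. The Gars place at chr6:55065450-55065514 had 59, 26 and 2 miR-200 chimeras and 44, 37 and 6 others. The Thbd place at chr2:148405286-148405433 had 46, 20 and 0 and 15, 14 and 2. The places named are examples.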

How the data were processed

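CLEAR-CLIP reads of 18 libraries came as 5 pooled files, 1 for each group. The tools named are bedtools, cutadapt and Novoalign with mm10, per the submitters' processing notes, without versions. The authors deposited positions of another (other) unit type, 1 entry for each chimeric read with its barcode. Targets were assigned by midpoint to RefSeq gene spans (GRCm38.p6); exons and genome sequence were not used here. miRNA shares count reads, and gene shares count each chimera (1 position, strand and miRNA) once. The floor of 3 is 0.000787% of induced and 0.00143% of DKO reads outside the family. Ratios carry the exact conditional 95% interval; a miRNA (at least 50 reads over both pools) or gene (at least 30 chimeras) was called at 2-fold with an interval that excluded 1. The calls were tested on simulated data with planted changes and counting error alone, so spread between libraries or cell lines was not covered. Named miRNAs are the 10 most abundant and the 8 largest ratios a direction with at least 200 reads; named genes the 10 most abundant and 10 largest a direction with at least 60 chimeras, the 12 with the most miR-200 and 6 a direction among its carriers, and the 2 most abundant of each list; list members named beyond these were chosen after their values were seen. Members, lists and rules were chosen with earlier results of these data known. Python 3.11.15, pandas 2.3.3, scipy 1.17.1 and matplotlib 3.10.9 were used. Other minimums, denominators, counting and strands were tried as alternatives. Some results that these rules would name are not reported here.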

Additional observations from a re-analysis of the deposited data

How the results depend on the processing

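No paired analysis was possible because each group is 1 pooled file that carries no replicate numbers, and for the same reason no library could be left out. Medians were judged by a tolerance of 0.1 in log2, and counts by a factor of 1.5. Most counts kept to within 1.5 times of the values reported. Exceptions came with other minimums, which count fewer or more miRNAs or genes: with at least 200 reads, 13 miRNAs were higher and 12 lower, with at least 15 chimeras 362 genes were lower, and with at least 60 chimeras 175 genes were higher and 115 lower. Without the 10 most abundant other miRNAs 217 genes were higher and 139 lower, of which 147 and 105 were among those called with all miRNAs; fewer genes were then counted. Of 554 values of single miRNAs and genes, 489 stayed within their interval, 63 moved beyond it on the same side of 1, and 2 reversed: let-7a-5p stood at 0.991 with each position counted once and at 0.998 without structured and mitochondrial targets. Precision is limited by the DKO pool, the shallowest of the 3, and intervals leave out the spread between libraries.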
